A study of Mus musculus with 28 samples.

Results

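The mature miRNAs of the miR-17-92 and miR-106b-25 clusters were followed in the blood of ageing mice. The 10 members are mmu-miR-17-5p, mmu-miR-18a-5p, mmu-miR-19a-3p, mmu-miR-19b-3p, mmu-miR-20a-5p and mmu-miR-92a-3p of miR-17-92, and mmu-miR-106b-5p, mmu-miR-93-5p, mmu-miR-93-3p and mmu-miR-25-3p of miR-106b-25. They are the rows of the deposited tables that carry these names, 10 of 1966 miRNAs in a table of 80668 RNAs. The rule used names alone and no measured value. It takes the main arm of each hairpin, and miR-93-3p as the minor arm beside miR-93-5p.

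The study asked how small RNAs in circulation differ with age and between vesicles and the surrounding plasma. It sequenced small RNA from 14 wildtype female C57BL/6N mice, aged 2 months (3 mice), 6 months (4 mice), 8 months (3 mice), 12 months (2 mice) and 18 months (2 mice). Each mouse gave a pellet enriched in extracellular vesicles (EVs, membrane-bound particles that cells release) by ultracentrifugation and the EV-depleted plasma above it, 28 libraries in all. No mouse carried a transgene or received a treatment other than ketamine and xylazine anaesthesia for blood collection from the vena cava, and platelets and cell debris had been spun out of the blood before the fractions were made. The sources used here describe no pooling of mice, and the replicate numbers were read as mice. The plasma labels of 2-month replicates 2 and 3 share a code that names both mice, so which mouse each library holds, or whether it holds a mix, cannot be told apart. The match of these libraries to EVs rests on the replicate number alone, and an n of 3 in plasma at 2 months counts libraries. In such bulk samples, fewer cells releasing a miRNA and less of it released per cell cannot be told apart.

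Both clusters are transcribed as long primary RNAs from which the hairpins are cut. The loaded arm of each hairpin guides Argonaute to messenger RNAs, mainly through pairing of bases 2 to 8 from its 5′ end, the seed, so that miRNAs with the same seed share most of their targets. miR-17-92 is driven by MYC and E2F factors, promotes growth and survival of dividing cells, is known as an oncogene in lymphoma and is needed in B-cell development, and its miR-17 and miR-20a dampen the cell-cycle inhibitor p21 and E2F1. Its miR-92a acts in blood vessels and red cell maturation. miR-106b-25 lies within the gene of a DNA replication factor and carries a related set of seeds.

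The 10 sequences are shown because every comparison among the members turns on which of them share a seed. They are the mature sequences of RefSeq for the GRCm38.p6 assembly, all 10 of which were matched by name, with the seed in capitals. 4 members share AAAGUGC, the seed of the miR-17 family:
mmu-miR-17-5p: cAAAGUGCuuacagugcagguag
mmu-miR-20a-5p: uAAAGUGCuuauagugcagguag
mmu-miR-106b-5p: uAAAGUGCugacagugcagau
mmu-miR-93-5p: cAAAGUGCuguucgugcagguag
miR-18a-5p has a seed of its own:
mmu-miR-18a-5p: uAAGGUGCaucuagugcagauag
The miR-19 arms share GUGCAAA:
mmu-miR-19a-3p: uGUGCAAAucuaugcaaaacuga
mmu-miR-19b-3p: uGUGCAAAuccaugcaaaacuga
miR-92a-3p and miR-25-3p, of different clusters, share AUUGCAC:
mmu-miR-92a-3p: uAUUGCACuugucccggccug
mmu-miR-25-3p: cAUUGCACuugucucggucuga
The minor arm of the miR-93 hairpin stands alone:
mmu-miR-93-3p: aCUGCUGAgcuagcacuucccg

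Counted from 1 at the 5′ end, miR-19a-3p and miR-19b-3p differ only by U11C, so that only this base can tell their reads apart. How reads that match several RNAs were assigned is not given. miR-17-5p and miR-20a-5p differ by C1U and C12U, and miR-92a-3p and miR-25-3p by U1C, C14U and C18U over their shared length. miR-17-5p and miR-106b-5p differ by C1U, U10G and G20A, again over their shared length, and miR-17-5p and miR-93-5p by U10G, A11U, C12U and A13C. The AAAGUGC and AUUGCAC seeds are each represented in both clusters, whereas only members listed under miR-17-92 carry the miR-19 seed. Of these, miR-19b-3p also has a hairpin outside that cluster.

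In GRCm38 with GENCODE M21, the 6 hairpins of miR-17-92 lie within 836 bases on the plus strand, chr14:115043671-115044506, in an exon of the long noncoding RNA gene Mir17hg (chr14:115042879-115046727). The 3 hairpins of miR-106b-25 lie within 498 bases on the minus strand, chr5:138165321-138165818, inside Mcm7 (chr5:138164583-138172422), which encodes a subunit of the replicative helicase. Mir25 and Mir93 overlap an annotated exon of that gene and Mir106b lies in an intron. miR-19b-3p and miR-92a-3p are also made from the hairpins Mir19b-2 and Mir92-2 at chrX:52741838-52742066, outside any annotated gene. The counts of these 2 members include values that are not whole, and the source of a read cannot be told apart for them.

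Libraries differed in depth. Plasma libraries held 928651 to 23905651 counts, of which 0.248% to 0.536% fell on miRNAs. EV libraries held 4764338 to 52753818 counts, with 0.222% to 0.652% on miRNAs. Plasma 6-month replicate 1 was the only library under 2000000 counts. Levels are given as deposited in RPM, counts scaled by a divisor of each library that is not its total count, and differences between groups as log2 fold changes from edgeR after TMM scaling over miRNAs, which removes a factor shared by most miRNAs of a library. RPM shifted the median miRNA between groups, to 0.28 on the log2 scale between EVs and plasma (0.02 after TMM) and to 1.10 between EVs of 12 to 18 months and of 6 to 8 months (0.01 after TMM).

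9 of the 10 members had reads in all 28 libraries, and the members together held 8.30% ± 1.39 of miRNA counts in plasma and 7.82% ± 1.27 in EVs (SD, n = 14 each). The miR-106b-25 members took 4.68% ± 0.951 in plasma and 4.34% ± 0.969 in EVs, and the 6 miR-17-92 members 3.62% ± 0.622 and 3.48% ± 0.632. miR-25-3p was the most abundant member, with 248 ± 90.8 RPM in plasma and 270 ± 124 RPM in EVs. The first places of the order were fixed in every library. miR-25-3p exceeded miR-19b-3p (97.1 ± 28.1 RPM in plasma, 122 ± 58.3 in EVs) in 14 of 14 libraries of each fraction, and miR-19b-3p exceeded the next member in all of them too. miR-92a-3p (46.5 ± 17.8 RPM) and miR-19a-3p (43.5 ± 14.0 RPM) did not separate in plasma, where miR-92a-3p was higher in 7 of 14 libraries. In EVs miR-19a-3p (53.4 ± 27.1 RPM) lay above miR-92a-3p (38.6 ± 15.7 RPM) in 13 of 14 libraries. miR-92a-3p and miR-93-5p (38.4 ± 27.4 RPM in EVs, 30.4 ± 15.8 in plasma) did not differ in EVs beyond their spread, with miR-92a-3p higher in 10 of 14 libraries.

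The lower part of the order was miR-17-5p, miR-20a-5p, miR-106b-5p, miR-18a-5p and miR-93-3p in both fractions. miR-17-5p had 15.2 ± 7.07 RPM in plasma and 18.1 ± 13.0 RPM in EVs. It was above miR-20a-5p (11.7 ± 5.63 and 14.7 ± 9.89 RPM) in 12 of 14 plasma and 11 of 14 EV libraries, and below miR-93-5p in all 28. miR-106b-5p had 9.35 ± 4.39 RPM in plasma and 11.9 ± 8.01 RPM in EVs, under miR-20a-5p in 11 of 14 and 13 of 14 libraries. miR-18a-5p stayed low, at 4.56 ± 2.56 and 5.20 ± 2.80 RPM, although its hairpin lies between those of miR-17 and miR-19a. miR-93-3p was near the detection limit, with 51 counts over the 14 plasma libraries and 74 over the 14 EV libraries, and reached 1 RPM in 3 plasma and 2 EV libraries.

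**Figure D1:**
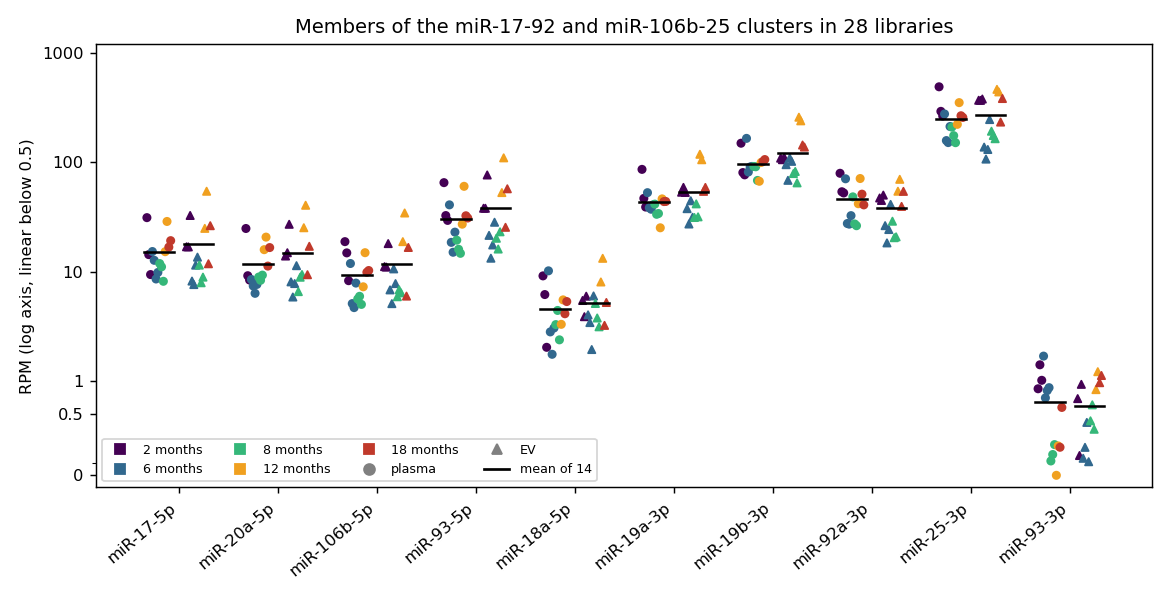
RPM of each of the 10 members (horizontal axis) in every library, on an axis that is logarithmic above 0.5 and linear below. Circles are plasma and triangles EV libraries, colours are ages and bars are means of 14 libraries. miR-25-3p lies at the top between 107 and 488 RPM and miR-93-3p at the bottom between 0 and 1.70 RPM, and in EVs the libraries of 6 and 8 months are low for most members.

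Summed by seed, the AUUGCAC pair held the largest part, 4.80% ± 0.973 of miRNA counts in plasma and 4.22% ± 0.982 in EVs (SD, n = 14 each). The miR-19 arms held 2.36% ± 0.516 and 2.45% ± 0.593, and the 4 members with AAAGUGC 1.06% ± 0.239 and 1.06% ± 0.252. The AUUGCAC share in plasma was 6.17% ± 0.707 at 2 months (n = 3), 4.43% ± 0.673 at 6 to 8 months (n = 7) and 4.41% ± 0.679 at 12 to 18 months (n = 4). The AAAGUGC share at these ages was 1.30%, 0.911% ± 0.122 and 1.13% ± 0.197, lowest at 6 to 8 months. The miR-19 share was highest there, at 2.37% ± 0.326, 2.68% ± 0.433 and 1.80% ± 0.225. Among member counts alone, miR-19 took 30.2% to 37.2% in the 7 plasma libraries of 6 to 8 months. It took 23.1% to 24.7% at 2 months and 20.9% to 28.2% at 12 to 18 months. By this share, whose sum is mostly set by miR-25-3p, the middle ages did not overlap with the others in plasma. By RPM and after TMM scaling, each miR-19 arm in plasma did overlap with the middle ages at 2 and at 12 to 18 months. In EVs the miR-19 share of member counts was 27.4% to 42.9% at 6 to 8 months. It was 21.7% to 24.9% at 2 months and 26.0% to 37.5% at 12 to 18 months, where the older mice overlapped with the middle ages. The miR-106b-25 members made up 60.1% to 61.7% of member counts in plasma and 62.9% to 63.0% in EVs at 2 months, against 49.99% to 56.8% and 44.4% to 58.3% at 6 to 8 months. At 12 to 18 months they made up 56.3% to 61.0% in plasma, which reaches into the 2-month range, and 50.3% to 60.4% in EVs. These shares are descriptions of the counts, with no test, and how often other sets of miRNAs separate in this way was not counted.

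**Figure D2:**
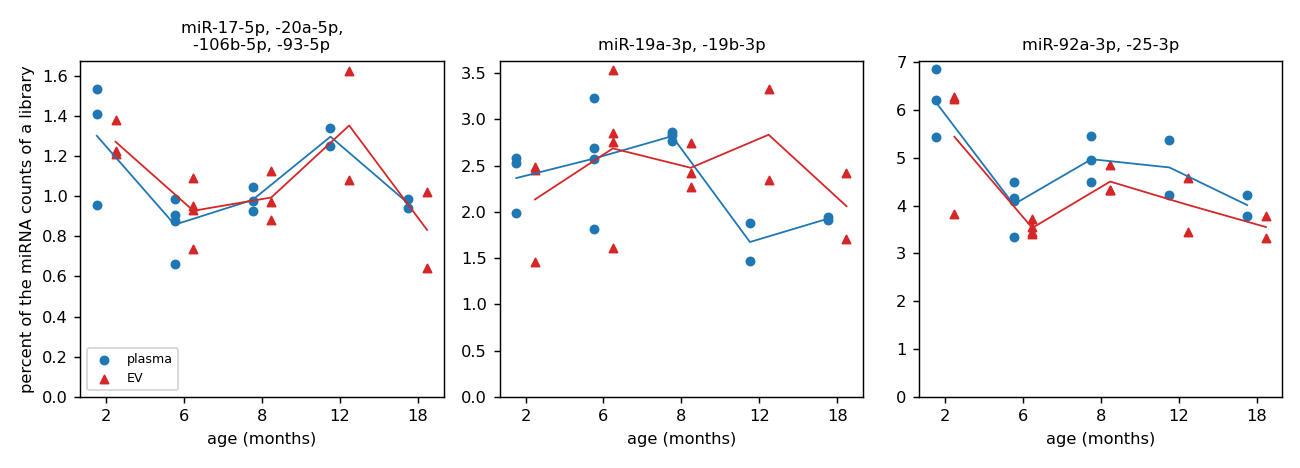
Percent of the miRNA counts of a library taken by each seed group, per library against age, with the ages evenly spaced and lines through the age means, in plasma (circles) and in EVs (triangles). In plasma the AUUGCAC group (miR-92a-3p and miR-25-3p) is highest at 2 months, where its mean is 6.17%, and the miR-19 group is lowest at 12 to 18 months, where its mean is 1.80%.

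Between the fractions, miR-92a-3p was lower in EVs and no other member passed the test. Its RPM values in plasma were 79.3, 53.8 and 52.5 at 2 months, 70.7, 27.6, 27.2 and 32.6 at 6 months, 48.3, 27.3 and 26.4 at 8 months, 41.8 and 71.0 at 12 months and 51.1 and 40.8 at 18 months. In EVs they were 47.2, 44.8 and 50.1 at 2 months, 26.4, 18.4, 24.3 and 41.2 at 6 months, 29.0, 20.5 and 20.9 at 8 months, 54.4 and 69.9 at 12 months and 39.5 and 54.2 at 18 months. The ranges of the fractions overlap, and within mice EVs were lower in 11 of 14 by RPM and in 13 of 14 after TMM scaling, where the means in CPM, here TMM-scaled counts relative to the miRNA counts of the library, were 7688 in plasma and 5521 in EVs. The log2 fold change of mmu-miR-92a-3p in EVs against plasma was -0.48 (SE 0.14, adjusted p = 0.0181, edgeR's quasi-likelihood test with age as a covariate and Benjamini-Hochberg adjustment over 333 miRNAs). In this comparison 8.11% of all miRNAs were called higher in EVs and 10.2% lower, so 1 of 10 members lower is near the background. The call was lost when RPM set the scale, at -0.27 against a median of 0.28 for all miRNAs (adjusted p = 0.479), and without 2-month replicate 3 (0.0704), 12-month replicate 1 (0.0521) or 12-month replicate 2 (0.0637). With the mouse as a block, miR-92a-3p was again the only member called, while 14.4% of all miRNAs were called lower in EVs.

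The other members lay close to equality between EVs and plasma after TMM scaling. In the miR-17 family the log2 fold changes were -0.05 (SE 0.18) for miR-17-5p, 0.01 (SE 0.19) for miR-20a-5p, 0.07 (SE 0.18) for miR-106b-5p and 0.07 (SE 0.18) for miR-93-5p. For the miR-19 arms they were 0.05 (SE 0.15) for miR-19a-3p and 0.08 (SE 0.13) for miR-19b-3p. miR-18a-5p had 0.06 (SE 0.20), miR-25-3p -0.11 (SE 0.15) and the rare miR-93-3p -0.25 (SE 0.36). Their adjusted p by edgeR ran from 0.680 to 0.989. The median over the 10 members was 0.03, beside 0.02 over all miRNAs tested.

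**Figure D3:**
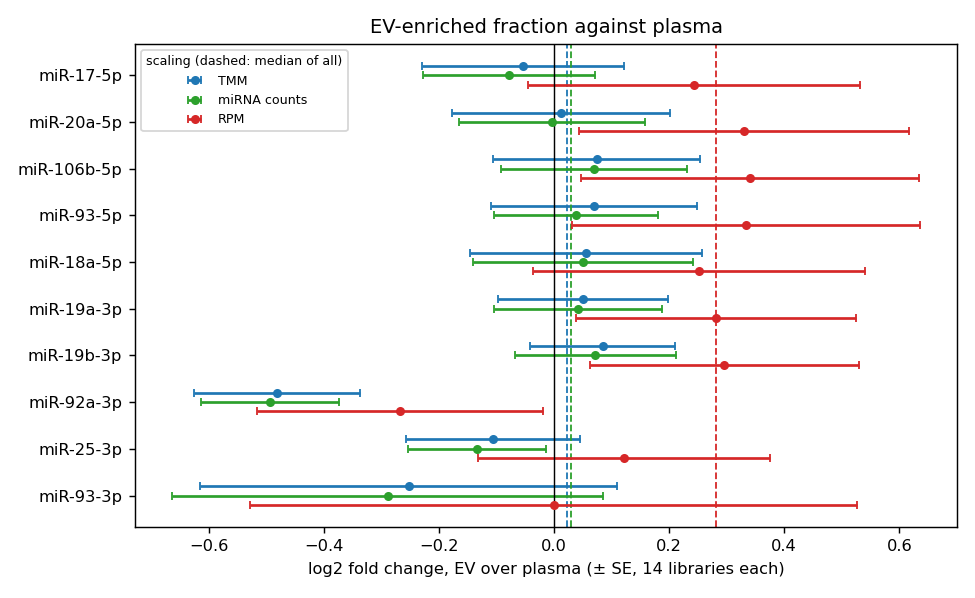
log2 fold change of each member in EVs against plasma, with bars of 1 SE from edgeR under 3 scalings (TMM, miRNA counts and RPM), and a dashed line for the median of all miRNAs under each. After TMM scaling miR-92a-3p, at -0.48, is the only member past the threshold and the others lie between -0.25 and 0.08, and RPM scaling moves the points and the median of all miRNAs (0.28) upward together.

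A ratio of miRNAs within a library does not depend on its scaling. The log2 ratio of miR-92a-3p over miR-25-3p, which share a seed but not a cluster, was -2.43 ± 0.21 in plasma and -2.76 ± 0.25 in EVs (SD, n = 14). The plasma values ran from -2.70 to -1.95 and the EV values from -3.09 to -2.38, so the fractions overlap in part. Within mice the EV value was lower by 0.33 ± 0.26, in 12 of 14 mice. For the other pairs that share a seed, the EV value minus the plasma value lay between -0.13 and 0.02, with an SD of 0.25 to 0.60. It was -0.04 ± 0.25 for miR-19a-3p over miR-19b-3p and -0.10 ± 0.35 for miR-17-5p over miR-20a-5p. Because miR-92a-3p had been called in the comparison of the fractions, its ratio is a second view of those counts and was not tested. The red-cell miRNAs miR-486a-5p and miR-486b-5p were lower in EVs as well (log2 fold change -0.77, adjusted p = 0.00588 with edgeR, for the first and -0.73, adjusted p = 0.00777, for the second). The rest of the red-cell list was not called and did not share a sign, at -0.10 for miR-451a, 0.19 for miR-144-3p and 0.24 for miR-144-5p. Red cell release as a part of the difference in miR-92a-3p was not tested.

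**Figure D4:**
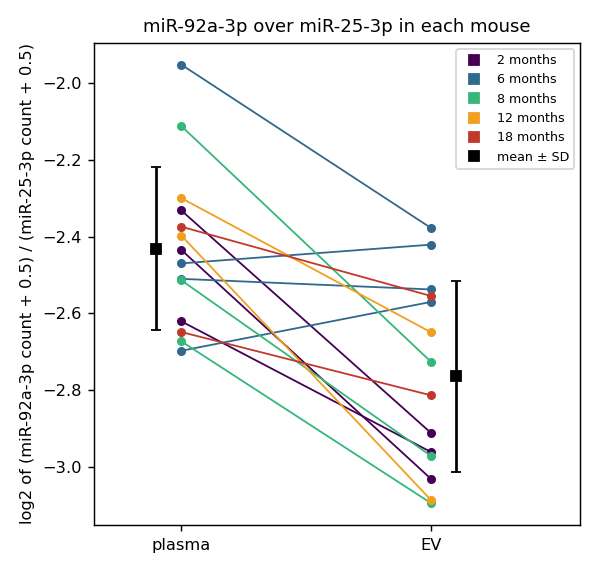
log2 ratio of miR-92a-3p over miR-25-3p counts, with 0.5 added to each, in plasma and EVs, with a line for each of the 14 mice coloured by age, and squares with bars for the mean and SD. The line falls from plasma to EVs in 12 of 14 mice, from a mean of -2.43 to a mean of -2.76.

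Between the 2-month mice and the 7 mice of 6 and 8 months, edgeR called 0 of 10 members in either fraction. The members with the smallest p were miR-93-5p, miR-25-3p and, in plasma, miR-106b-5p, all with log2 fold changes above 0 at 2 months. These age-group contrasts were added after the data had been seen. In plasma miR-93-5p had 65.2, 32.6 and 29.5 RPM at 2 months, against 40.9, 18.6, 15.1 and 23.0 at 6 months and 19.5, 16.1 and 14.8 at 8 months. miR-106b-5p had 18.9, 14.9 and 8.31 RPM at 2 months, against 11.9, 5.13, 4.72 and 7.90 at 6 months and 5.66, 5.98 and 5.05 at 8 months. miR-25-3p had 488, 291 and 264 RPM at 2 months, against 276, 158, 151 and 212 at 6 months and 209, 175 and 151 at 8 months. For each of these 3 members only 6-month replicate 1, the shallowest library, reached into the 2-month range by RPM. After TMM scaling miR-93-5p did not overlap, at 5357 to 7680 CPM against 2776 to 4634.

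The log2 fold changes in plasma at 2 against 6 to 8 months were 0.98 (SE 0.26, adjusted p = 0.0558) for miR-106b-5p, 0.87 (SE 0.23, adjusted p = 0.0558) for miR-93-5p and 0.69 (SE 0.20, adjusted p = 0.0794) for miR-25-3p. With edgeR 0 of 10 members passed the threshold and 4 of 10 had an unadjusted p under 0.05, the fourth being miR-92a-3p at 0.62 (SE 0.25, adjusted p = 0.294). Of all 304 miRNAs tested, 0.987% were called higher and 0% lower, and 40 had an unadjusted p under 0.05. DESeq2 called miR-106b-5p (adjusted p = 0.0355), miR-93-5p (0.0253) and miR-25-3p (0.0355), where it called 2.96% of all miRNAs higher. A filter of 1 RPM in at least 50% of the libraries gave 2 of them, miR-106b-5p and miR-93-5p, both at adjusted p = 0.0397, beside 2.73% of miRNAs higher. The other members' values ran from -0.10 for miR-19b-3p to 0.89 for miR-93-3p (SE 0.62). In plasma miR-93-3p passed the filter only through 2-month replicates 2 and 3 and 6-month replicate 1. The filter thus favoured a value above 0 at 2 months, which is no independent support. The members' median, which includes miR-93-3p, was 0.57, beside -0.03 over all miRNAs.

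The miRNAs called higher with edgeR at 2 months in plasma were all red-cell markers, miR-486a-5p, miR-486b-5p and miR-144-5p, at 1.15, 1.14 and 1.08 on the log2 scale (adjusted p = 0.0274 each). miR-486a-5p and miR-486b-5p held nearly the same counts, 7608 and 7428 over the plasma libraries, so these markers are not independent of each other. The summed RPM of the 5 red-cell miRNAs was 1263 to 3170 at 2 months, 687 to 1548 at 6 to 8 months and 1096 to 2787 at 12 to 18 months in plasma, and 1548 to 3555, 512 to 1153 and 772 to 4268 in EVs, with none of the 5 at 0 in any library. The part of red cells in the members' values at 2 months was not tested.

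In EVs the same contrast called 0 of 10 members with edgeR, and 0 with DESeq2. miR-93-5p was at 0.76 (SE 0.27, adjusted p = 0.195), miR-25-3p at 0.72 (SE 0.25, adjusted p = 0.195), miR-20a-5p at 0.61 (SE 0.27, adjusted p = 0.310) and miR-17-5p at 0.60 (SE 0.27, adjusted p = 0.326), and these were the 4 members with an unadjusted p under 0.05. Of 307 miRNAs 0.326% were called higher and 0% lower, and 42 had an unadjusted p under 0.05. The miR-19 arms were at 0.17 and -0.13, miR-18a-5p at -0.13, and the members' median was 0.41 beside -0.09 over all miRNAs. miR-25-3p had 368, 367 and 377 RPM in EVs at 2 months, and 107 to 245 RPM in the 7 libraries of 6 and 8 months. By RPM 7 members did not overlap between these ages in EVs, all but miR-18a-5p, miR-19b-3p and miR-93-3p, where 10.1% of all miRNAs were above without overlap. After TMM scaling only miR-17-5p did not overlap (2756 to 3512 against 1412 to 2743 CPM; 5.86% of all miRNAs). In plasma 0 members by RPM and 1, miR-93-5p, after TMM scaling lay above the 6 to 8 month range, where 3.29% and 3.62% of all miRNAs did.

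At 12 to 18 months against 6 to 8 months in plasma, the miR-17 family and the miR-19 arms had opposite signs, without a call. miR-93-5p was at 0.53 (SE 0.21, adjusted p = 0.218 with edgeR), miR-20a-5p at 0.53 (SE 0.30), miR-17-5p at 0.45 (SE 0.26) and miR-106b-5p at 0.38. miR-19a-3p was at -0.40 (SE 0.22, adjusted p = 0.414) and miR-19b-3p at -0.38 (SE 0.20, adjusted p = 0.390). Under RPM scaling miR-19a-3p was at 0.02, with the median of all miRNAs at 0.46. edgeR called 0 of 10 members, as did DESeq2, 1 had an unadjusted p under 0.05, and 1.97% of 304 miRNAs were called higher and 0.987% lower, with 45 under an unadjusted 0.05. miR-20a-5p was the 1 member that did not overlap by RPM, with 15.9 and 20.7 RPM at 12 months and 11.3 and 16.7 at 18 months, against 6.37 to 9.33 RPM at 6 to 8 months (0.987% of all miRNAs). After TMM scaling 0 members lay above the middle ages, with 1.64% of all miRNAs.

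In EVs the older mice stood above the middle ages by RPM and not after TMM scaling. miR-19b-3p had 258 and 239 RPM at 12 months and 144 and 138 at 18 months, against 64.8 to 109 RPM at 6 to 8 months. miR-19a-3p had 118 and 105 RPM at 12 months and 54.2 and 58.9 at 18 months, against 27.3 to 44.5 RPM. These arms and miR-93-3p did not overlap by RPM, with 12.1% of all miRNAs. miR-93-3p had passed the filter in EVs only through libraries of these older mice. Scaled to RPM, edgeR called 9 of 10 members higher, with 49.8% of all miRNAs, at a members' median of 1.35 beside 1.10 over all miRNAs. After TMM scaling edgeR called 0 of 10 members, none with an unadjusted p under 0.05, and 0% of 307 miRNAs in each direction, 37 with an unadjusted p under 0.05, and DESeq2 called 7 miRNAs and 0 members. The members then ran from -0.34 for miR-18a-5p to 0.49 for miR-93-3p, with a median of 0.09 beside 0.01. After TMM scaling 0 members lay above the middle ages without overlap, with 0.326% of all miRNAs.

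Across age as a straight line, no member had a called slope in either fraction. In plasma the slopes with edgeR ran from -0.028 to 0.016 log2 units per month, apart from miR-19a-3p at -0.037 (SE 0.020, adjusted p = 0.384) and miR-93-3p at -0.133 (SE 0.052, adjusted p = 0.235). 0% of 304 miRNAs were called in each direction, 47 with an unadjusted p under 0.05 and 2 by DESeq2, and 1 member, miR-93-3p, had an unadjusted p under 0.05. In EVs the slopes ran from -0.031 to 0.042, none with an unadjusted p under 0.05, with 0% of 307 miRNAs called rising and 0.326% falling, 37 under an unadjusted 0.05 and 2 by DESeq2. The median slope of the members was -0.022 in plasma and -0.018 in EVs, beside -0.002 and 0.001 over all miRNAs. The test of whether slopes differ between the fractions called 0% of 333 miRNAs in each direction with edgeR and 0 with DESeq2, and 11 had an unadjusted p under 0.05. Among the members miR-93-3p was the 1 under that limit, at 0.165 log2 units per month more in EVs (SE 0.063, adjusted p = 0.720). It passed the filter through plasma libraries of 2 and 6 months and EV libraries of 12 and 18 months, which favours such a difference.

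miR-93-3p also had the strongest rank correlation of RPM with age among the members, in opposite directions. In plasma its counts were 7, 8 and 9 at 2 months, 1, 4, 7 and 4 at 6 months, 1, 1 and 2 at 8 months, 0 and 2 at 12 months and 1 and 4 at 18 months. In RPM these were 0.857, 1.42 and 1.02 at 2 months, 1.70, 0.708, 0.825 and 0.878 at 6 months, 0.118, 0.171 and 0.252 at 8 months, 0 and 0.241 at 12 months and 0.230 and 0.579 at 18 months. Every plasma library of 8 months or more lay below every library of 2 and 6 months, and all of these values rest on fewer than 10 counts. In plasma miR-93-3p passed the filter only through 2-month replicates 2 and 3 and 6-month replicate 1, libraries where it was high. The filter thus favoured a fall with age, so rho and its place among all miRNAs are no independent support. Spearman's rho with age was -0.76 (Pearson's r = -0.58, 14 libraries, permutation p = 0.00214 and 0.0300, adjusted over 304 miRNAs 0.651 and 0.423), the lowest of all 304 miRNAs, so the relation fails the correction. Without the mice of 18 months, those farthest from the median age, rho was -0.83 and r -0.73.

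In EVs its counts were 7, 1 and 8 at 2 months, 1, 3, 2 and 1 at 6 months, 4, 5 and 3 at 8 months, 5 and 17 at 12 months and 6 and 11 at 18 months. It passed the filter there only through 12-month replicate 2 and 18-month replicate 2, at 1.23 and 1.13 RPM, which favoured a rise. rho was 0.56 (r = 0.60, permutation p = 0.0432 and 0.0240, adjusted 0.541 and 0.225) and fell to 0.36 after TMM scaling. The other members had rho of -0.24 to 0.38 in plasma, and of -0.01 to 0.34 in EVs. Beyond 0.5 lay 2.96% of all miRNAs in plasma and 10.7% in EVs, and below -0.5 lay 5.59% and 0.326%. With 1 member of 10 past each limit, the members stood near these shares.

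The arms of the miR-93 hairpin were far from balanced. Over the plasma libraries miR-93-5p had 2609 counts and miR-93-3p 51, a share of 1.92% for the 3p arm, and over the EV libraries 4973 and 74, a share of 1.47%. The log2 ratio of 5p over 3p within libraries was 5.50 ± 1.12 in plasma and 5.86 ± 0.88 in EVs (SD, n = 14). The EV value exceeded the plasma value by 0.36 ± 1.66 on average and in 8 of 14 mice, with p = 0.426 in a two-sided exact permutation test over all 16384 sign changes. A change of the arm ratio between the fractions was not detectable at this depth.

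Across the 28 libraries, after removal of the fraction means, the highest correlations among members lay between miRNAs of the same seed. The correlations of log2 TMM-scaled CPM are descriptions over libraries that share depth, mice and age. Members with the same seed had r of 0.68 to 0.84. miR-93-5p correlated with miR-25-3p, its neighbour on the transcript, at 0.73 and with miR-92a-3p of the other cluster at 0.70, but with miR-93-3p of its own hairpin at 0.05. miR-19b-3p and miR-93-5p had r of -0.03.

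The miRNA nearest in pattern to miR-93-5p was the red-cell miR-451a (r = 0.93), followed by miR-16-5p (0.91). miR-451a was among the 3 nearest miRNAs of 4 members, all those with AAAGUGC, at 0.87 for miR-17-5p, 0.81 for miR-20a-5p and 0.80 for miR-106b-5p. For the AUUGCAC pair the nearest was miR-486a-5p, also a red-cell miRNA, at 0.92 for miR-25-3p and 0.84 for miR-92a-3p. miR-19a-3p was nearest to miR-301a-3p (0.91), then to miR-19b-3p (0.83) and to the leukocyte miR-142a-3p (0.73). Against the summed red-cell list, r was 0.94 for miR-93-5p, 0.88 for miR-17-5p, 0.83 for miR-106b-5p, 0.82 for miR-20a-5p, 0.76 for miR-25-3p and 0.64 for miR-92a-3p. It was 0.49 for miR-18a-5p, 0.35 for miR-19a-3p, 0.07 for miR-93-3p and 0.03 for miR-19b-3p, so the members whose seeds are AAAGUGC and AUUGCAC were those that varied most with the red-cell miRNAs. The highest r of any miRNA was 0.60 with miR-18a-5p and 0.58 with miR-93-3p.

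**Figure D5:**
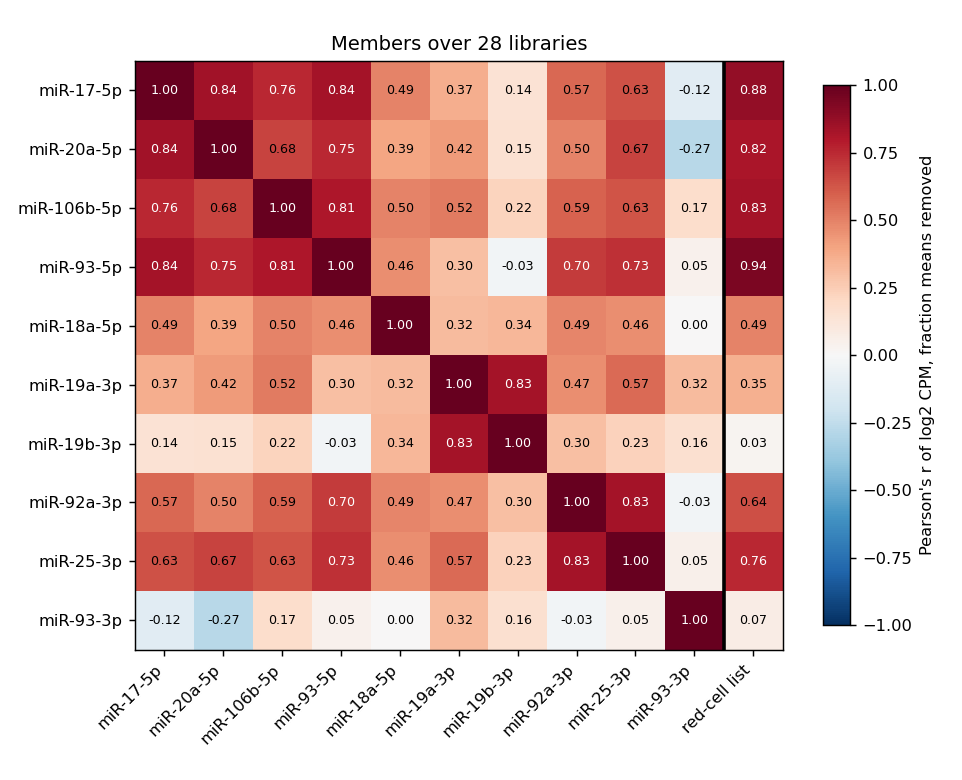
Pearson's r between every pair of members, and of each with the summed red-cell miRNAs, over 28 libraries after removal of the fraction means, printed in each cell and on a colour scale. The AAAGUGC and AUUGCAC members have high values in the red-cell column (0.94 for miR-93-5p), and miR-19b-3p and miR-93-3p do not (0.03 and 0.07).

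Of the other arms of the same hairpins, 10 are in the table, 3 passed the filter and 0 were called between the fractions with edgeR, at adjusted p of 0.336, 0.645 and 0.852. The most abundant of them was miR-106b-3p, with 2.58 RPM on average in plasma and 3.12 RPM in EVs, so the paired arm of the rarest AAAGUGC member was better covered than miR-93-3p. Of 6 paralogs with the same seeds from other loci, 4 passed the filter and 0 were called. miR-32-5p, which carries the AUUGCAC seed, had the most counts among them, 209 in plasma and 414 in EVs, against 21405 and 32748 for miR-25-3p. The paralog miR-92b-3p was at -0.77 in EVs against plasma (SE 0.36, adjusted p = 0.124).

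Marker lists of the cells that could release these miRNAs were counted in the comparison of the fractions in the same fit. Of the red-cell list 2 of 5 were lower in EVs, miR-486a-5p and miR-486b-5p, which are not independent, with 7559 and 7544 counts in EVs. Of all leukocytes 1 of 2 was higher, miR-142a-3p at 0.77 (adjusted p = 0.00160 with edgeR). Of platelets and myeloid cells 0 of 2, of lymphocytes 0 of 2 tested, of liver 0 of 4, of skeletal muscle 0 of 3 and of endothelium 0 of 2 were called in either direction.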

How the data were processed

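Small RNA libraries of EV-enriched pellets and EV-depleted plasma from 14 mice were analysed. As judged from the values, the tables the authors deposited hold estimated counts of every RNA without normalization. A second table they deposited scales these counts to RPM, a signal with its own divisor for every library. That divisor is not the total count. What it counts was not given in the sources used here, nor were the aligner, the counting tool and the handling of reads that match several RNAs. The submitters' processing notes name R 4.0.4 and the mm10 build. Libraries were mapped to fraction, age and replicate from the labels. All value columns belong to 1 of these 28 libraries. The members and lists were chosen with earlier results of these data known.

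A miRNA was tested if it reached 1 RPM in over 10% of a fraction's libraries, 304 in plasma, 307 in EVs and 333 over both. All 10 members passed, miR-93-3p by 3 plasma libraries, of 2 and 6 months, and 2 EV libraries, of 12 and 18 months. Counts were rounded to whole numbers and fitted with edgeR 4.0.16 under R 4.3.3 with limma 3.58.1 (TMM over miRNAs, quasi-likelihood test), and p-values were adjusted by Benjamini-Hochberg over all miRNAs tested, with a threshold of 0.05. The fit of the fractions held age as a covariate and used all 28 libraries. The age trends used 14 libraries of a fraction, and the age groups were contrasted within such a fit. DESeq2 1.42.0 was the other count tool. RPM was correlated with age by Spearman's rho, with 100000 resamples. Log2 ratios within a library added 0.5 to each count. Python 3.11.15, numpy 2.4.6, pandas 2.3.3 and matplotlib 3.10.9 did the rest. The tests were tested on simulated data with known changes.

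The text names all 10 members, the 3 nearest miRNAs by Pearson's r for each member, and lists of minor arms, same-seed paralogs and markers of red cells, platelets and myeloid cells, lymphocytes, all leukocytes, liver, skeletal muscle and endothelium. Alternatives were other normalizations, filters, codings of age, the mouse as a block and leaving out mice or shallow libraries. The fractions pair by mouse, since the labels give both to the same animal, except for 2-month replicates 2 and 3, which were paired by replicate number alone. Deviations from the group means correlated within a mouse between -0.02 and 0.53 (median 0.17), over 0.1 in 9 of 14 mice, and 11 of 14 libraries were nearest to their own mouse's. At 12 and 18 months, with 2 mice each, the deviations mirror each other, so both mice of an age share 1 value. These counts thus hold fewer than 14 separate values. miRNA counts per library, 4977 to 82646 in plasma and 20063 to 203624 in EVs, set the precision, and counting error alone is large for miR-93-3p and miR-18a-5p, the latter with 5 to 75 counts in plasma libraries and 9 to 184 in EV libraries.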

Additional observations from a re-analysis of the deposited data

Results flagged for a closer look

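In 54 groups of 4 values, 5 had a library that stood far from the other 3. A single group passes this rule by chance about 1 time in 20. The groups are different quantities of the same few libraries and are not separate. The count of 5 can therefore not be set against that rate. Plasma 6-month replicate 1, the shallowest library, had 10.2 RPM of miR-18a-5p against 1.77 to 3.07 in the others of its group. The same library had 165 RPM of miR-19b-3p against 81.5 to 91.6, 70.7 RPM of miR-92a-3p against 27.2 to 32.6, and 1.70 RPM of miR-93-3p, 1 count, against 0.708 to 0.878. In EVs of 6 months, replicate 4 had a log2 ratio of miR-19a-3p over miR-19b-3p of -1.69, against -1.33 to -1.29 in the others.

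For 4 members the EV library was above the plasma library in every mouse of some ages and below it in every mouse of another. This is by log2 of TMM-scaled CPM, and the difference between the ages was not tested. The share of all miRNAs that meet this rule was not counted, and ages with 2 mice meet it easily. The count of 4 is thus no result about the members. miR-18a-5p averaged 0.26 in the 2 mice of 12 months, where 1 mouse was near 0 (0.01 and 0.51), and -0.62 in the 2 mice of 18 months. miR-19b-3p averaged 0.59 in the 2 mice of 12 months and -0.19 in the 3 mice of 8 months. miR-20a-5p averaged 0.40 in the 4 mice of 6 months and -0.54 in the 2 mice of 18 months. miR-93-3p averaged 2.15 over the 7 mice of 8, 12 and 18 months and -1.98 in the 4 mice of 6 months, on 0 to 17 counts a library. 12-month replicate 1 had 0 counts of it in plasma, so its difference of 7.09 is set by the number added to the counts, and without it the other 6 mice averaged 1.32.

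The table holds 1 row for the host transcript Mir17hg outside the comparisons of the miRNAs, and 0 rows for Mcm7. The summed mature counts of its 6 hairpins came to 85.9% ± 3.03 of the counts of that row in plasma (SD, n = 14, 78.6% to 90.0%) and 86.4% ± 7.02 in EVs (69.6% to 91.6%), and in no library to more than it. The Pearson's r of the log2 values over the 14 libraries of a fraction was 0.99 in plasma and 0.98 in EVs, given as a description of rows that may share reads.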

How the results depend on the processing

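No slope on age and no interaction was called for any member under any alternative run. Neither was any contrast of 2 with 6 to 8 months in EVs, or of 12 to 18 with 6 to 8 months in plasma. The arm ratio stayed without a call, at 0.17 to 0.54 when each mouse was left out. Without the mice of uncertain pairing it fell to 0.06 (p = 0.896, exact permutation test). The mouse as a replicate block gave 0 members for the interaction and 1 for the fractions, where it called 88 of 333 miRNAs. Members called between the fractions fell from 1 to 0 with RPM scaling, with no filter on low values and without the mice of uncertain pairing, and ran from 0 to 1 over the mice left out. Members called at 2 against 6 to 8 months in plasma went from 0 to 3 with DESeq2, to 2 with the filter of 50% of libraries and from 0 to 3 over the mice left out, with calls without 2-month replicate 3, 8-month replicate 1, 8-month replicate 3 or 12-month replicate 2, where edgeR called 7, 10, 10 and 6 of all miRNAs. At 12 to 18 against 6 to 8 months in EVs they went from 0 to 9 with RPM scaling. Members with rho beyond 0.5 in plasma went from 1 to 2 with scaling to miRNA counts, to 2 without the mice of 18 months and from 1 to 3 over the mice left out. Of all miRNAs scaled to miRNA counts, 18 of 304 lay above 0.5 and 23 below -0.5. Without the mice of 18 months these were 4 and 22 of 292. The 3 members came without 2-month replicate 1, where 24 and 10 of 302 miRNAs lay past the limits. In EVs they went from 1 to 0 with TMM scaling and with scaling to miRNA counts. Without the mice of 18 months they were 0 of 9, since miR-93-3p failed the filter and was not tested. Over the mice left out they ran from 0 to 1. There too miR-93-3p was not tested without 12-month replicate 2 or 18-month replicate 2.

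A sign change was counted where either estimate lay more than 1 SE from 0. By this, 12 of 1506 member values reversed, and 78 further sign changes lay within 1 SE of 0. With RPM scaling, slopes per month in EVs became 0.0306 for miR-18a-5p, 0.0463 for miR-19a-3p, 0.0245 for miR-20a-5p, 0.0252 for miR-92a-3p and 0.0161 for miR-25-3p. miR-18a-5p without the mice of 18 months was at 0.0170 per month. RPM scaling also gave 0.34 for miR-19b-3p at 2 against 6 to 8 months in EVs, 0.0208 for miR-19a-3p at 12 to 18 against 6 to 8 months in plasma, and in EVs 0.92 for miR-18a-5p, 1.18 for miR-19b-3p and 1.08 for miR-92a-3p. With no filter the last contrast gave 0.00496 for miR-18a-5p. The RPM reversals accompany the shift of all miRNAs by that scaling, and the cause of the others was not tested. Over all miRNAs, edgeR's 3 calls at 2 against 6 to 8 months in plasma became 11 with DESeq2, 6 with RPM scaling, 0 when scaled to miRNA counts and 0 without libraries under 2000000 counts. The age trend gave 0 in plasma and 1 in EVs, 7 in each with no filter. Depth limits miR-93-3p most, with 0 to 17 counts a library. The contrasts of age groups and their alternatives were chosen after seeing the data.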

Other observations

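The plasma libraries of 2-month replicates 2 and 3 share a label code, and held 291 and 264 RPM of miR-25-3p, 46.8 and 39.0 RPM of miR-19a-3p, 14.9 and 8.31 RPM of miR-106b-5p and 6.21 and 2.05 RPM of miR-18a-5p. EV 12-month replicates held the highest miR-19b-3p of the series by RPM, 258 and 239. EV 12-month replicate 2 held the highest miR-17-5p (54.4 RPM), miR-93-5p (110 RPM) and miR-106b-5p (34.4 RPM). After TMM scaling only miR-17-5p kept this place. The highest miR-19b-3p was then in plasma 8-month replicate 1 (21806 CPM). The highest miR-93-5p was in EV 2-month replicate 3 (8223 CPM) and the highest miR-106b-5p in plasma 2-month replicate 2 (3089 CPM).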
